A study of Rattus norvegicus with 16 samples.

Results

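The enzymes described here break heme down or build it. They are Hmox1, Hmox2, Blvra and Blvrb on the breakdown side, and Alas1, Alad, Uros, Cpox and Fech on the synthesis side. They were taken as the probes whose gene name in the scanner files was one of these 9 symbols, which gave 12 probes of the 45598 on the array. All 9 genes were among the 16024 genes tested. Alad, Blvra and Uros had 2 probes each and the other genes 1.

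RNA came from kidney cortex of male Jcl:SD rats, and each of the 16 samples was hybridised to its own single-colour array. The 6 groups were BRCA1+/- rats without treatment (2 arrays), given ferric nitrilotriacetate (Fe-NTA) for 1 week (3 arrays) or for 3 weeks (3 arrays), and wild-type rats in the same 3 conditions with the same numbers of arrays. Fe-NTA is an iron chelate that injures the proximal tubule by oxidation. It was injected into the abdomen from 4 weeks of age, at 5 mg iron/kg for the first 2 doses, 7 mg iron/kg for the next 3, and 10 mg iron/kg for 5 doses a week in the weeks after that, and the cortex was removed 48 h after the last dose. The BRCA1+/- rats are described in the labels by genotype alone, without the position of the mutation. The labels give neither age nor vehicle for the untreated rats, so age and treatment cannot be told apart, and time, age and dose cannot be told apart between 3 weeks and 1 week. Nothing in the labels says that each array is a different animal, and the p-values measure the spread between these samples only, which may be technical. In bulk cortex, fewer cells of a type and less RNA per cell cannot be told apart.

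Heme is made in a chain that begins and ends in the mitochondrion. Alas1 catalyses the rate-limiting step in most tissues and is repressed by heme. Alad joins its product into porphobilinogen, Uros closes the porphyrin ring, Urod and Cpox trim its side chains, Ppox oxidises it, and Fech inserts the iron. Breakdown begins with heme oxygenase, which opens the ring and releases iron, carbon monoxide and biliverdin. Hmox1 is the inducible form, switched on by NRF2 when heme displaces the repressor BACH1, and Hmox2 is the constitutive form. Biliverdin reductase A (Blvra) makes bilirubin from biliverdin, and Blvrb is a second reductase that also acts on flavins. In the kidney, tubular cells are known to induce Hmox1 after toxic injury.

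Values are given as scaled log2 signal, the log2 of an array's processed signal minus that array's 75th percentile. A value of 0 is therefore the 75th percentile of the array, and a difference of 1 is a doubling. Levels of different probes are not compared, since each probe has its own response. A change was called at an adjusted p under 0.05 from limma, adjusted over all 16024 genes. A probe is called well above background by the scanner's own flag. The share of probes well above background ran from 32.8% to 60.5% over the arrays, and no spot was saturated. Arrays of a group correlated at 0.964 to 0.981 with each other, with an exception in replicate 3 of the wild-type 1-week group, whose correlations with its partners were 0.905 and 0.908. The brighter of 2 Brca1 probes was well above background on 7 of 8 BRCA1+/- arrays and 6 of 8 wild-type arrays, so it does not separate the genotypes and, with the mutation's position not given, is no check of the labels.

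The result for Hmox1 rests on a single probe of 60 bases near the end of its coding region, where the membrane anchor of the protein is encoded. For Alad, Blvra and Uros the probes below are the second, dimmer ones, shown because the fall of each gene after 1 week is read against them further on. All are in lower case, since no part is singled out, and positions are those of the file headers on rn4 (RGSCv3.4).
Hmox1, chr19:13969336-13969395, plus strand: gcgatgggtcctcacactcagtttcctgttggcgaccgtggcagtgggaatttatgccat
Alad, chr5:79507959-79508018, minus strand: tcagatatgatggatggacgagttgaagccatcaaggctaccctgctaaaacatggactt
Blvra, chr3:114633853-114634451, plus strand: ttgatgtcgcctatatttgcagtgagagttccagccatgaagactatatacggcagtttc
Uros, chr1:193188294-193189266, minus strand: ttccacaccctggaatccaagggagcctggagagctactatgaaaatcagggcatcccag
The Blvra and Uros probes cover 599 and 973 bases of genome with 60 bases of sequence, so each crosses an intron of its transcript.

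After 1 week of Fe-NTA, Hmox1 rose in both genotypes while the other enzymes that changed fell, except Cpox in wild-type cortex. In BRCA1+/- cortex 2 of the 9 enzymes were called, against 7.47% of all genes tested. Hmox1 was higher, as were 4.27% of all genes, and Blvra was lower, as were 3.2%. In wild-type cortex 6 of the 9 were called, against 27.1% of all genes. Hmox1 and Cpox were higher there, as were 12.8% of all genes, and Blvra, Alad, Uros and Fech were lower, as were 14.3%. After 3 weeks 1 enzyme was called in BRCA1+/- cortex, Cpox, which was higher, against 15.9% of all genes called and 9.37% higher. None was called in wild-type cortex after 3 weeks by limma, against 14.2% of all genes, and 1 of the 9, Blvra, had an unadjusted p under 0.05 there. The median change over the 9 enzymes at 1 week was -0.36 in BRCA1+/- and -0.64 in wild-type cortex, against medians over all genes of -0.03 and -0.02. Both comparisons of a genotype share its 2 control arrays.

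**Figure D1:**
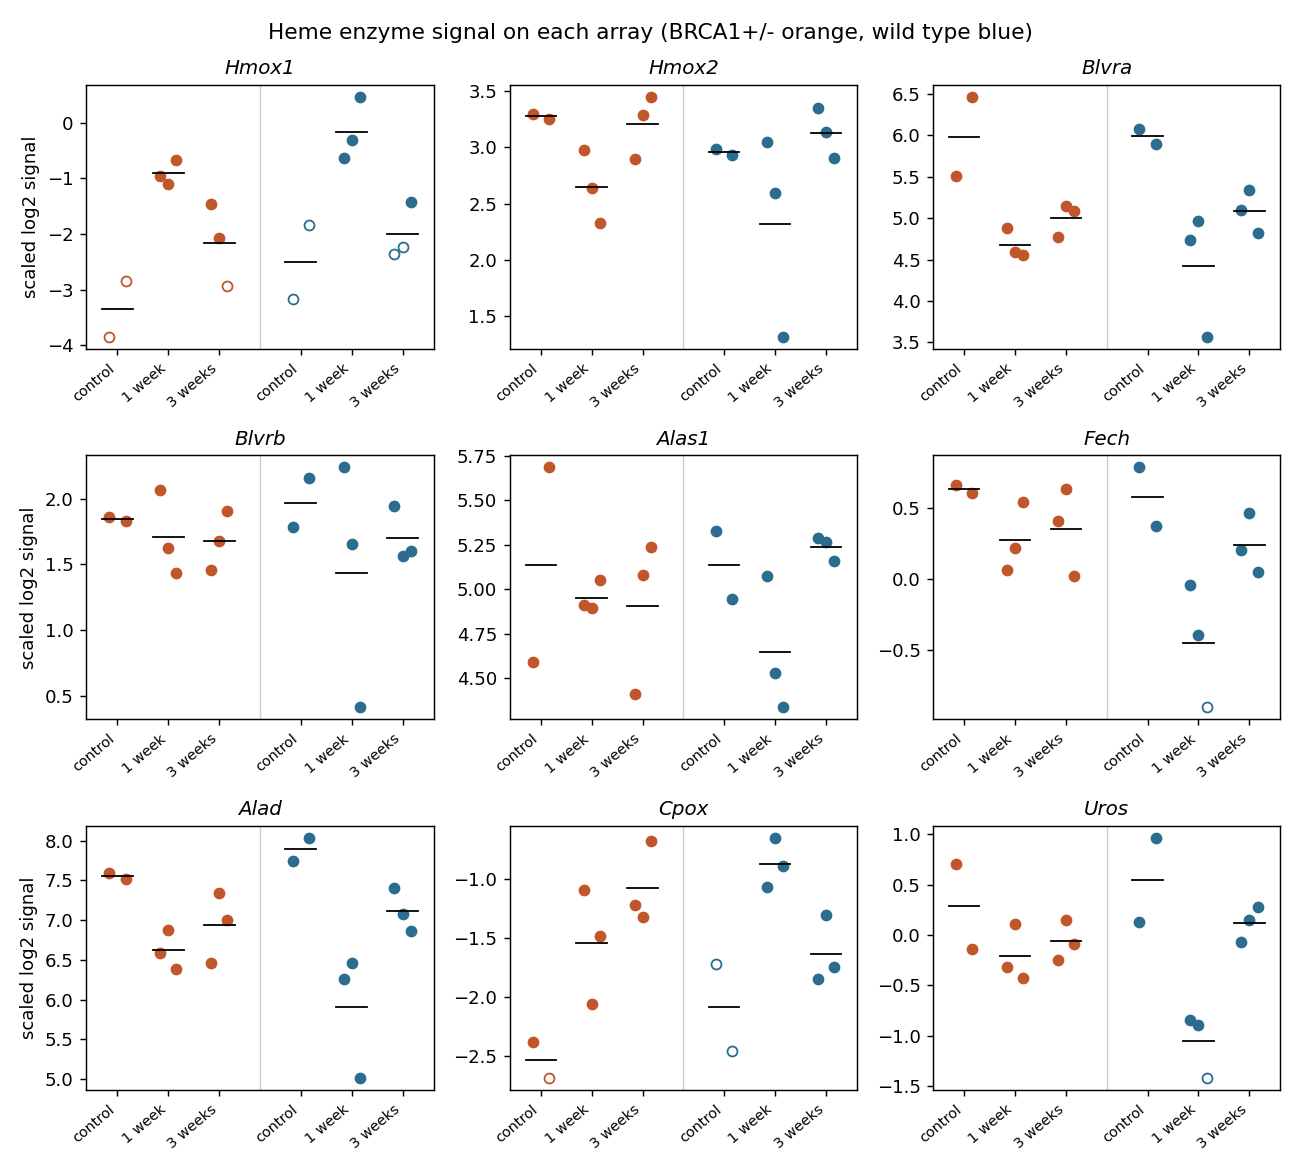
Scaled log2 signal (vertical axis, 1 panel per enzyme with its own scale) on each of the 16 arrays by genotype and time, for the probe that represents the gene. Filled points were well above background, open points were not, and black lines are group means. Hmox1 is highest after 1 week in both genotypes, and the wild-type 1-week array with the lowest Alad value, 5.02, is replicate 3.

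Hmox1, the inducible heme oxygenase, was not well above background in untreated cortex and was so on every array after 1 week. In BRCA1+/- rats its scaled log2 signal was -3.85 and -2.85 on the control arrays, -0.95, -1.10 and -0.67 after 1 week, and -1.45, -2.08 and -2.94 after 3 weeks. In wild-type rats it was -3.17 and -1.84 on the control arrays, -0.63, -0.31 and 0.47 after 1 week, and -2.37, -2.23 and -1.42 after 3 weeks. In each genotype every 1-week array was above every control array and every 3-week array. A gene was tested only if 1 or more groups had its probe well above background throughout. For Hmox1 only the 1-week groups did. It thus entered the test through the groups where it is high, and this separation is no further evidence.

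Because none of the 4 control arrays had the probe well above background, the rise of Hmox1 is given as a lower bound. It compares the 1-week mean with the higher, on each control array, of its detection limit and the probe's own value. After 1 week Hmox1 was at least 3.81-fold higher than control in BRCA1+/- cortex (adjusted p = 0.0087) and at least 2.75-fold higher in wild-type cortex (adjusted p = 0.0029). The measured means were -0.91 ± 0.22 (SD, n = 3) at 1 week against -3.35 ± 0.70 (n = 2) in BRCA1+/- controls, and -0.16 ± 0.56 (n = 3) at 1 week against -2.50 ± 0.94 (n = 2) in wild-type controls. The BRCA1+/- call was lost without control replicate 1 (adjusted p = 0.13) and the wild-type call without control replicate 1 (adjusted p = 0.064). With the normexp background correction, which adds an offset of 50 to every signal, both were lost and the fitted log2 changes were 0.38 and 0.30. With dim values of all arrays set to the highest detection limit of any of them, -1.38, the BRCA1+/- change was 0.47 (adjusted p = 0.28) and the wild-type change 1.22 (adjusted p = 0.0033).

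By 3 weeks Hmox1 was lower than at 1 week. The fall was called in wild-type cortex, at a log2 change of -1.85 ± 0.45 (SE, adjusted p = 0.019). Only 1 of the 3 arrays at 3 weeks was well above background there, so this change is a fitted value and not a measured size. In wild-type cortex 3 of 9 enzymes were called between 3 weeks and 1 week, against 8.31% of all genes. Of the 3 enzymes 1 was lower, against 2.78% of all genes, and 2 were higher, against 5.54%. The fall of Hmox1 was not called in BRCA1+/- cortex (-1.25 ± 0.45, adjusted p = 0.30). All 3-week values there lay below the 1-week values. Since Hmox1 entered the test through the 1-week groups, this separation is no further evidence. Against controls the 3-week change of Hmox1 was not called in either genotype. In BRCA1+/- cortex 2 of 3 arrays were above background at 3 weeks (at least 1.60-fold, adjusted p = 0.11), and in wild-type cortex 1 of 3 was (adjusted p = 0.55). The wild-type fall between 1 and 3 weeks was not called without 1-week replicate 3 (-1.54, adjusted p = 0.071) or without 3-week replicate 1 or 2 (adjusted p = 0.074 and 0.082).

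Ordered by mean, Hmox1 was highest in wild-type cortex at 1 week, then BRCA1+/- cortex at 1 week, wild-type at 3 weeks, BRCA1+/- at 3 weeks, wild-type controls and BRCA1+/- controls. The genotypes did not overlap at 1 week, but their difference was not called (-0.75 ± 0.45, adjusted p = 0.52). The 1-week groups did not overlap the 3-week groups, and from the third place down the groups next to each other overlapped. The groups of this order other than the 1-week ones rest partly or wholly on arrays where the probe was below background.

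Hmox2, the constitutive heme oxygenase, was not called in any comparison. In BRCA1+/- rats it was 3.30 and 3.25 on the control arrays, 2.98, 2.63 and 2.32 after 1 week, and 2.90, 3.29 and 3.45 after 3 weeks. In wild-type rats it was 2.99 and 2.94 on the control arrays, 3.04, 2.60 and 1.32 after 1 week, and 3.35, 3.14 and 2.90 after 3 weeks. The 1-week log2 change was -0.63 in BRCA1+/- cortex, with a 95% interval from -1.47 to 0.21 (adjusted p = 0.37). In wild-type cortex it was -0.64, with an interval from -1.48 to 0.20 (adjusted p = 0.26).

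Blvra, which turns biliverdin into bilirubin, fell after 1 week in both genotypes. In BRCA1+/- rats it was 5.51 and 6.46 on the control arrays, 4.88, 4.59 and 4.56 after 1 week, and 4.78, 5.14 and 5.08 after 3 weeks. In wild-type rats it was 6.08 and 5.90 on the control arrays, 4.74, 4.96 and 3.57 after 1 week, and 5.10, 5.34 and 4.82 after 3 weeks. All treated arrays of a genotype lay below both of its controls at both times.

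The 1-week change of Blvra was -1.31 ± 0.38 in BRCA1+/- cortex (2.48-fold lower, adjusted p = 0.048) and -1.56 ± 0.38 in wild-type cortex (2.96-fold lower, adjusted p = 0.0067). The BRCA1+/- call stood at the threshold: it was lost when any 1 of the 5 arrays was left out, with adjusted p up to 0.42 without control replicate 2. The wild-type call was lost without control replicate 1 (adjusted p = 0.056). At 3 weeks the change was -0.98 ± 0.38 in BRCA1+/- (adjusted p = 0.087) and -0.90 ± 0.38 in wild-type cortex (adjusted p = 0.13), neither of them called. The second probe, printed above, gave -0.92 in BRCA1+/- cortex (adjusted p = 0.15) and -0.88 in wild-type cortex (adjusted p = 0.10) at 1 week, in the same direction but not called.

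Blvrb was not called in any comparison. It ranged from 1.43 to 2.06 in BRCA1+/- cortex after 1 week, against 1.83 and 1.86 in BRCA1+/- controls. In wild-type cortex it was 2.24, 1.66 and 0.41 after 1 week, against 1.78 and 2.15 in controls, so the groups overlapped and the spread came from replicate 3. Its 1-week change was -0.13 ± 0.40 in BRCA1+/- (adjusted p = 0.89) and -0.53 ± 0.40 in wild-type cortex (adjusted p = 0.36).

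Of the synthesis enzymes, Alas1, the rate-limiting one, was not called in any comparison. In BRCA1+/- rats it was 4.59 and 5.69 on the control arrays, 4.91, 4.90 and 5.05 after 1 week, and 4.41, 5.08 and 5.24 after 3 weeks. In wild-type rats it was 5.33 and 4.95 on the control arrays, 5.08, 4.53 and 4.34 after 1 week, and 5.29, 5.27 and 5.16 after 3 weeks. The groups overlapped at both times in both genotypes. The 1-week change was -0.19 in BRCA1+/- cortex, with a 95% interval from -0.91 to 0.54 (adjusted p = 0.80), and -0.49 in wild-type cortex, from -1.21 to 0.23 (adjusted p = 0.32).

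The window around the annotated start of Alas1 is shown because it holds a motif that 4.255% of 33469 promoter windows of that length hold. It is that of nuclear respiratory factor 1 (Nrf1), searched on both strands as GCGCA, any base and GCGC, and it occurs there at 2 places. The stretch runs from 60 bases before the start to 20 from it, with the matches in capitals, the first 31 and the second 2 bases before the start. It was taken from RefSeq on GRCr8, minus strand, and a match is a description of letters, not of binding.
Alas1, chr8:115768623-115768702: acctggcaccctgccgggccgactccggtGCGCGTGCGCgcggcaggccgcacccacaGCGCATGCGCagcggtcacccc
None of the other 6 enzymes with a window in the table held this motif. The E-box CACGTG, held by 6.418% of windows, was found at 2 places in the window of Alad. The GATA site AGATAA, held by 11.584%, was found once each in the windows of Blvra and Fech. The antioxidant response element core TGACNNNGC was searched on both strands and is held by 12.065% of windows. It was found once each in the window of Blvra and in 1 of the windows of Hmox2. Hmox1 and Cpox have no window there, so they were not searched for any motif. Neither the factor Nrf1 nor its coactivator Ppargc1a was called, with Nrf1 at -0.41 in BRCA1+/- cortex at 1 week (adjusted p = 0.67) and, against 2 wild-type controls below background, at an adjusted p of 0.23 in wild-type cortex, and Ppargc1a at 0.38 (adjusted p = 0.56) and -0.31 (adjusted p = 0.55).

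Alad, which makes porphobilinogen and is also known as the enzyme inhibited by lead, had the largest fitted fall of the 9 in wild-type cortex at 1 week. In BRCA1+/- rats it was 7.60 and 7.51 on the control arrays, 6.58, 6.88 and 6.39 after 1 week, and 6.47, 7.35 and 7.00 after 3 weeks. In wild-type rats it was 7.75 and 8.03 on the control arrays, 6.25, 6.47 and 5.02 after 1 week, and 7.40, 7.07 and 6.86 after 3 weeks. No treated array of either genotype reached its controls. Of these changes only the wild-type one at 1 week was called. At 3 weeks the adjusted p was 0.27 in BRCA1+/- and 0.19 in wild-type cortex.

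The wild-type 1-week change of Alad was -1.98 ± 0.38 (3.94-fold lower, adjusted p = 0.0015), and it was called whichever single array was left out. The BRCA1+/- change was -0.94 ± 0.38 and not called (adjusted p = 0.15). The second probe fell in wild-type cortex too (-1.36 ± 0.37, adjusted p = 0.012) and gave -0.51 in BRCA1+/- cortex (adjusted p = 0.45). Between 1 and 3 weeks the main probe rose in wild-type cortex (1.20 ± 0.34, adjusted p = 0.043), and the second probe gave 0.67 (adjusted p = 0.24). This rise was not called without 1-week replicate 3 (0.75, adjusted p = 0.11) or without any single 3-week array (adjusted p = 0.14, 0.12 and 0.076), nor with the slide as a block (adjusted p = 0.054).

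Uros, which closes the porphyrin ring, fell after 1 week in wild-type cortex. It was -0.84, -0.90 and -1.42 there, against 0.13 and 0.96 in controls, a change of -1.60 ± 0.32 (3.03-fold lower, adjusted p = 0.0021). On the lowest of these 1-week arrays, replicate 3, the main probe was not well above background. This limits the size of the fall and of the later rise. At 3 weeks Uros was -0.07, 0.15 and 0.28 in wild-type cortex, above every 1-week array (1.17 ± 0.29, adjusted p = 0.022). BRCA1+/- cortex had -0.32, 0.11 and -0.43 after 1 week, against 0.71 and -0.13 in controls, and the groups overlapped (-0.50 ± 0.32, adjusted p = 0.40). The second probe, which crosses an intron, was well above background on 7 of 16 arrays. In wild-type cortex it was so on 0 of 3 arrays at 1 week and 1 of 2 controls, and it was not called there (adjusted p = 0.19), so it gives no measured size. The wild-type fall was not called without control replicate 2 (-1.18, adjusted p = 0.056), nor was the later rise without 1-week replicate 3 (0.99, adjusted p = 0.063) or 3-week replicate 2 or 3 (adjusted p = 0.082 and 0.088).

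Fech, which inserts iron into the finished ring, also fell in wild-type cortex at 1 week. It was -0.05, -0.40 and -0.91 there, against 0.79 and 0.37 in controls (-1.03 ± 0.29, 2.04-fold lower, adjusted p = 0.017). On the lowest of these arrays, replicate 3, the probe was not well above background. BRCA1+/- cortex had 0.06, 0.22 and 0.55 after 1 week, against 0.67 and 0.61 in controls (-0.36 ± 0.29, adjusted p = 0.51). The wild-type call was lost without control replicate 1 (-0.82, adjusted p = 0.16).

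Cpox, the coproporphyrinogen oxidase, was the synthesis enzyme that rose. In BRCA1+/- rats it was -2.38 and -2.68 on the control arrays, -1.09, -2.06 and -1.49 after 1 week, and -1.22, -1.32 and -0.68 after 3 weeks. In wild-type rats it was -1.72 and -2.46 on the control arrays, -1.07, -0.65 and -0.89 after 1 week, and -1.85, -1.30 and -1.75 after 3 weeks. All of the treated BRCA1+/- arrays were above both of their controls. The signal was low throughout: the probe was well above background on 13 of 16 arrays, and on 1 of the 4 controls. Only treated groups had it well above background on all arrays, so Cpox entered the test through them, and its separation from controls is no further evidence.

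Cpox was at least 1.70-fold higher than control in wild-type cortex after 1 week (adjusted p = 0.013). It was higher in BRCA1+/- cortex after 3 weeks (1.46 ± 0.33, 2.75-fold, adjusted p = 0.0097) and not called after 1 week (0.99 ± 0.33, adjusted p = 0.086). The wild-type call was lost without control replicate 2 (0.85, adjusted p = 0.19), and the BRCA1+/- call without control replicate 2 (1.31, adjusted p = 0.096). With dim values at the highest detection limit, the fitted BRCA1+/- change at 3 weeks was 0.31 (adjusted p = 0.26) and the wild-type change at 1 week 0.51 (adjusted p = 0.058).

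**Figure D2:**
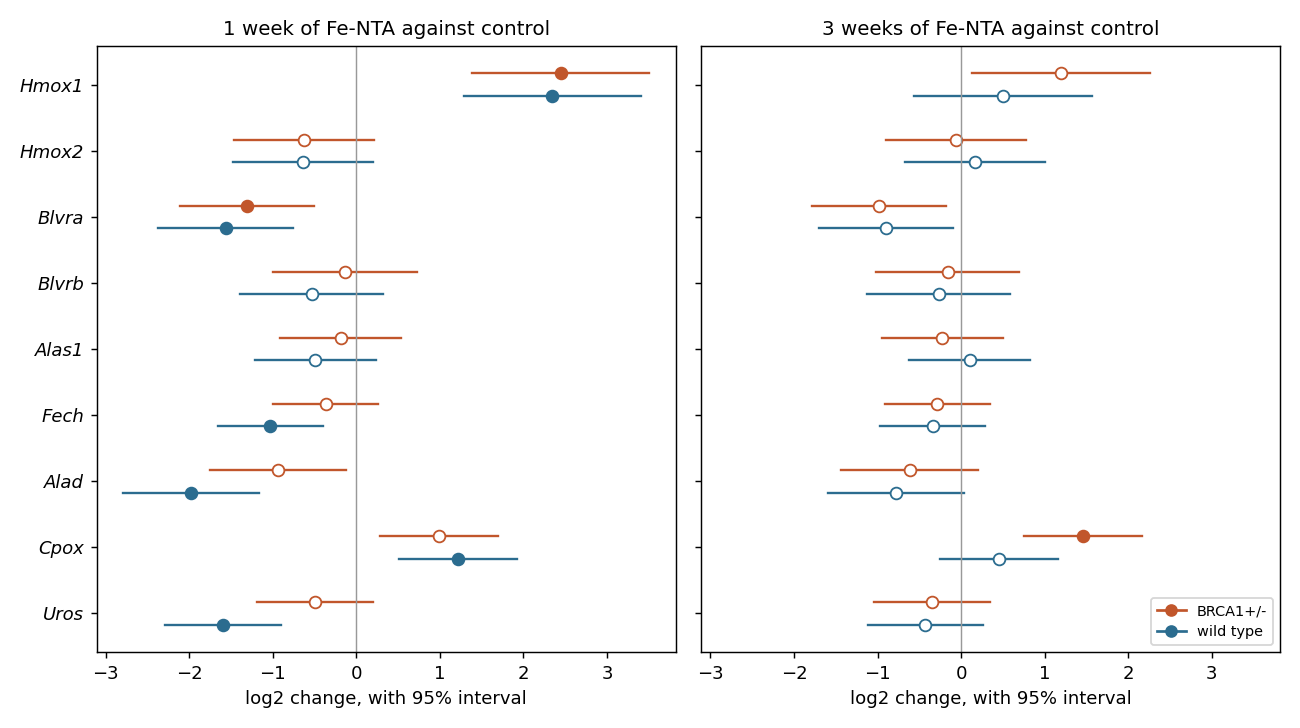
Log2 change of each enzyme from the control of its genotype (horizontal axis, bars are 95% intervals from the fit) after 1 week and after 3 weeks of Fe-NTA, BRCA1+/- above wild type. Filled points were called. For Hmox1 the control values were below background on all arrays, as were those of wild-type Cpox, so these points are fitted values and not measured folds.

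The 16 arrays lay on 2 slides, which are also 2 scans, and each slide held arrays of every group. Of the 12 called changes of the enzymes 10 were called with the slide as a block. The other 2 were Blvra at 1 week in BRCA1+/- cortex (-1.33, adjusted p = 0.051) and Alad between 1 and 3 weeks in wild-type cortex (1.20, adjusted p = 0.054). Within a single slide 1 of the 24 values was called, Alad at 1 week in wild-type cortex on slide 2 (adjusted p = 0.044). Since none of these 12 changes has overlapping groups, their direction within a slide is fixed and is no further evidence. Hmox1 at 1 week in BRCA1+/- cortex was 2.39 with the slide as a block, 1.97 within slide 1 and 2.90 within slide 2, and in wild-type cortex it was 2.40, 2.86 and 1.76. Alad at 1 week in wild-type cortex was -1.97 with the block, -1.28 within slide 1 and -2.40 within slide 2.

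No enzyme was called between BRCA1+/- and wild-type cortex in untreated rats (0% of all genes), after 1 week (0.562% of all genes) or after 3 weeks (0%). The smallest adjusted p was 1.0 without treatment, 0.23 at 1 week and 0.81 at 3 weeks. At 1 week 3 of the 9 (Uros, Fech and Cpox) had an unadjusted p under 0.05, against 0 at the other times. The share of all genes at an unadjusted p under 0.05 is not given here, so such counts are not read as a result about the enzymes. The test of whether treatment changed an enzyme differently in the genotypes called none at 1 or 3 weeks (0% of all genes each), with 1 of the 9 at an unadjusted p under 0.05 at each time (Uros at 1 week, Cpox at 3 weeks). For Alad the BRCA1+/- change at 1 week minus the wild-type change was 1.04 ± 0.54 (adjusted p = 0.69), and for Uros 1.10 ± 0.46 (adjusted p = 0.58), so the calls in wild-type cortex without calls in BRCA1+/- cortex are not shown to be a difference between genotypes. For Hmox1 it was not called either (adjusted p = 0.99), and no size is given, since the probe was well above background on 0 of the 4 controls. Between 3 weeks and 1 week no enzyme was called in BRCA1+/- cortex, against 0.306% of all genes, and 1 of the 9, Hmox1, had an unadjusted p under 0.05.

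Other genes of the synthesis chain and its helpers were mostly lower or not called. Of 8 tested, 2 were lower in BRCA1+/- cortex at 1 week, against 3.2% of all genes, and none higher. In wild-type cortex 4 were lower, against 14.3% of all genes, and none higher. Their median change was -0.38 in BRCA1+/- and -1.15 in wild-type cortex. Pgrmc1, a heme-binding membrane protein that associates with Fech, was called in all 4 treated groups. Its changes were -1.51 ± 0.32 (adjusted p = 0.011) in BRCA1+/- and -3.07 ± 0.32 (adjusted p = 1.5e-05) in wild-type cortex at 1 week, and -1.72 (adjusted p = 0.0029) and -2.29 (adjusted p = 0.00044) at 3 weeks. Its values were 3.95, 4.16 and 3.23 after 1 week, against 5.58 and 5.00 in controls, in BRCA1+/- cortex, and 2.96, 2.87 and 2.57 after 1 week, against 5.63 and 6.11 in controls, in wild-type cortex. Ppox, the oxidase between Cpox and Fech, fell by 2.08 on the log2 scale in wild-type cortex at 1 week (adjusted p = 0.0019). Its probe was well above background on 2 of these 3 treated arrays, whose SD was 0.93. Ppox was not called in BRCA1+/- cortex (-1.11, adjusted p = 0.12). Clpx, a mitochondrial unfoldase that acts on ALAS enzymes, fell in wild-type cortex at 1 week (-1.74 ± 0.30, adjusted p = 0.0006) and at 3 weeks (-1.21, adjusted p = 0.015).

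Urod, the decarboxylase that acts after Uros, was not called at either time in either genotype. At 1 week its change was -0.16 in BRCA1+/- (adjusted p = 0.81) and -0.55 in wild-type cortex (adjusted p = 0.21). In wild-type cortex at 1 week Alad, Uros, Ppox and Fech were thus called lower and Cpox higher, while Alas1 and Urod were not called.

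Alas2, the form of the rate-limiting enzyme used by red cell precursors, was lower with the red cell markers. In BRCA1+/- cortex it was -2.13, -2.48 and -3.44 after 1 week, against 1.52 and 1.09 in controls (-3.99 ± 0.69, adjusted p = 0.0031). Only 1 of the 3 treated arrays was well above background, so this change is a fitted value and not a measured size. In wild-type cortex it was called lower after 1 week (adjusted p = 0.0031), with 0 of 3 treated arrays and 1 of 2 control arrays well above background, too few for a fold. Of 13 red cell markers 10 were tested, and 7 in BRCA1+/- and 6 in wild-type cortex were lower at 1 week and none higher. Their mean level per array was 0.09 to 0.31 at 1 week against 3.70 to 3.96 in BRCA1+/- controls, and -0.55 to 0.02 at 1 week against 1.87 to 3.64 in wild-type controls. Rhag and Epb42 were well above background on no array. What part red cell RNA has in the levels of the 9 enzymes was not tested.

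Macrophages and proximal tubule cells both use these enzymes, and their markers moved as well. Of 12 macrophage markers 7 were tested, and 5 in BRCA1+/- and 7 in wild-type cortex were higher at 1 week and none lower. Their mean level was 1.10 to 1.33 at 1 week against -0.63 to -0.28 in BRCA1+/- controls, and 0.88 to 2.03 at 1 week against -0.58 to -0.50 in wild-type controls. At 3 weeks it was 1.51 to 2.09 in BRCA1+/- and 1.63 to 1.99 in wild-type cortex, and no macrophage marker was called between 3 weeks and 1 week. Marco and Vsig4 were well above background on no array. The part of macrophage RNA in the levels of the 9 enzymes was not tested.

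All 12 proximal tubule markers were tested. At 1 week 5 in BRCA1+/- and 12 in wild-type cortex were lower and none higher. Their mean level was 4.07 to 5.27 at 1 week against 6.48 to 6.63 in BRCA1+/- controls, and 2.47 to 3.57 at 1 week against 6.74 to 6.75 in wild-type controls. At 3 weeks it was 4.03 to 5.40 in BRCA1+/- and 4.89 to 5.43 in wild-type cortex, and 7 of the 12 rose between 1 and 3 weeks in wild-type cortex and none in BRCA1+/- cortex. Alad and Uros were called lower at 1 week and higher between 1 and 3 weeks in the same wild-type arrays. The part of tubule cell loss or change in the levels of Blvra, Alad, Uros and Fech was not tested. Of 8 tubular injury markers 7 were tested, and 5 in BRCA1+/- and 7 in wild-type cortex were higher at 1 week. Of 8 distal and collecting duct markers, none was called in BRCA1+/- cortex at 1 week, and 1 was higher and 2 lower in wild-type cortex. Of 5 podocyte markers 1 was lower in each genotype, and of 4 adrenal and adipose markers tested none was called in BRCA1+/- and 1 was higher in wild-type cortex.

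**Figure D3:**
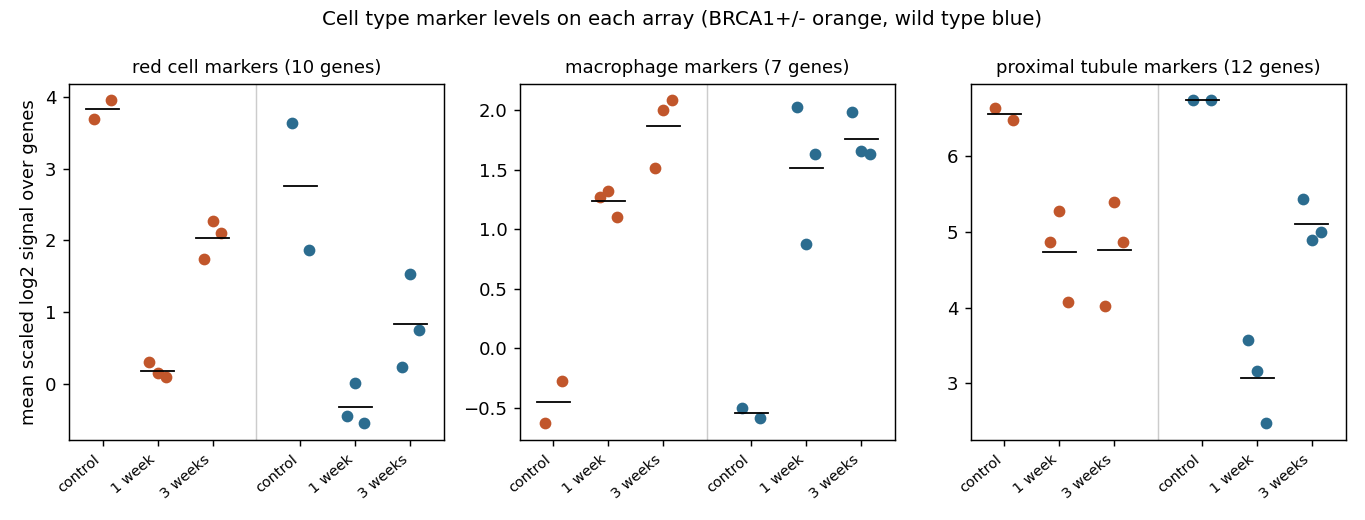
Mean scaled log2 signal over the tested genes of 3 marker lists (vertical axis, own scale per panel) on each array, with group means as black lines. Red cell markers are lower and macrophage markers higher after Fe-NTA in both genotypes, and proximal tubule markers are lowest in wild-type cortex at 1 week, at 2.47 to 3.57.

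The regulators of Hmox1 and Alas1 were mostly lower or not called. Of 10 tested, 1 in BRCA1+/- cortex was lower at 1 week, against 3.2% of all genes, and none higher. In wild-type cortex 5 were lower, against 14.3% of all genes, and 1 higher, against 12.8%. Bach1, the repressor of Hmox1, was not called in any treated group, with -0.13 in BRCA1+/- (adjusted p = 0.88) and -0.41 in wild-type cortex (adjusted p = 0.42) at 1 week. The transcript of NRF2, Nfe2l2, fell in wild-type cortex (-1.12 ± 0.26, adjusted p = 0.005) and was -0.65 in BRCA1+/- cortex (adjusted p = 0.14). It was 2.69, 2.52 and 2.84 on the wild-type 1-week arrays, against 3.86 and 3.74 on the controls. Hnf4a, a factor of hepatocytes and proximal tubule, fell in wild-type cortex (-2.08, adjusted p = 0.00081). Nr1d1, a clock repressor that heme binds, fell in both genotypes at 1 week (BRCA1+/- -1.99, adjusted p = 0.03, and wild type -2.04, adjusted p = 0.0087). Maff, a small partner of NRF2 and BACH1, was at least 1.98-fold higher in wild-type cortex (adjusted p = 0.019), with 2 of 3 treated arrays well above background.

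Of 8 other NRF2 targets tested, 1 was higher and 1 lower in BRCA1+/- cortex at 1 week, against 4.27% and 3.2% of all genes. In wild-type cortex 1 was higher and 3 lower, against 12.8% and 14.3% of all genes. The median changes of these targets were -0.69 in BRCA1+/- and -0.81 in wild-type cortex. Srxn1, which repairs oxidised peroxiredoxins, was the gene called higher in each of the 4 treated groups. It was 2.79, 2.05 and 2.52 after 1 week, against 0.31 and 0.71 in controls, in BRCA1+/- cortex (3.86-fold, adjusted p = 0.00094), and 2.59, 2.75 and 2.17, against 0.91 and 0.63 in controls, in wild-type cortex (3.33-fold, adjusted p = 0.0004). At 3 weeks it was still 3.27-fold higher than control in BRCA1+/- (adjusted p = 0.0012) and 3.00-fold higher in wild-type cortex (adjusted p = 0.0021). Me1, the cytosolic malic enzyme, was lower in all 4 treated groups (-1.09 to -1.73). The ferritin chains Fth1 (-0.90, adjusted p = 0.026) and Ftl1 (-1.27, adjusted p = 0.015), which store the iron that heme oxygenase frees, fell in wild-type cortex at 1 week. In BRCA1+/- cortex they were -0.76 (adjusted p = 0.11) and -1.01 (adjusted p = 0.098). Nqo1 was not called (0.97, adjusted p = 0.19 in BRCA1+/- cortex, and adjusted p = 0.12 in wild-type cortex, where neither control was well above background), and Gclm and Slc7a11 were well above background on no array.

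Of 10 tested genes that carry heme or its precursors, none was called in BRCA1+/- cortex at 1 week, against 7.47% of all genes. None was called there at 3 weeks either, against 15.9%. In wild-type cortex 2 were lower at 1 week, against 14.3% of all genes lower, and 1 at 3 weeks, against 14.2% called. The difference between genotypes was not called for any of them. In wild-type cortex Slc25a38, the mitochondrial carrier of glycine for the Alas step, was at least 1.73-fold lower at 1 week (adjusted p = 0.0077). Abcg2, a porphyrin exporter, was lower there at 1 week (-1.56, adjusted p = 0.013) and at 3 weeks (-1.44, adjusted p = 0.035). Of 5 tested genes that take up heme or hemoglobin from outside the cell, the tubular receptor Lrp2 (-2.19, adjusted p = 0.00094) and Amn (-2.52, adjusted p = 0.0011) fell in wild-type cortex at 1 week. The tubular receptor Cubn was not called there at 1 week (-0.05, adjusted p = 0.91) and was higher at 3 weeks (0.85, adjusted p = 0.034). The hemopexin receptor Lrp1 was called higher in wild-type cortex at 1 week (adjusted p = 0.021) with 1 of 3 treated arrays and 0 of 2 controls well above background, too few for a fold. Cd163, the macrophage receptor for hemoglobin, was at least 1.11-fold higher at 1 week (adjusted p = 0.036, 2 of 3 arrays well above background) and at least 2.98-fold higher at 3 weeks (adjusted p = 0.0007, 3 of 3 arrays) in BRCA1+/- cortex. Only the BRCA1+/- 3-week group had Cd163 well above background throughout. It thus entered the test through a group where it is high, and its separation from controls there is no further evidence. Cd163 was not called in wild-type cortex at 1 or 3 weeks (adjusted p = 0.64 and 0.051), where neither control was well above background. The BRCA1+/- change minus the wild-type change was not called at 1 or 3 weeks (adjusted p = 0.66 and 0.98). The plasma carriers Hp and Hpx were well above background on 1 and 0 arrays and were not tested. Of 2 tested genes of bilirubin disposal, Abcc2, an exporter of conjugated bilirubin, rose in BRCA1+/- cortex at 1 week (1.25, adjusted p = 0.022), and was 0.45 in wild-type cortex (adjusted p = 0.31). Its means were 1.36 and 1.35 at 1 week, and 0.11 and 0.90 in controls, in BRCA1+/- and wild-type cortex. The BRCA1+/- change minus the wild-type change was not called (0.80, adjusted p = 0.72).

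**Figure D4:**
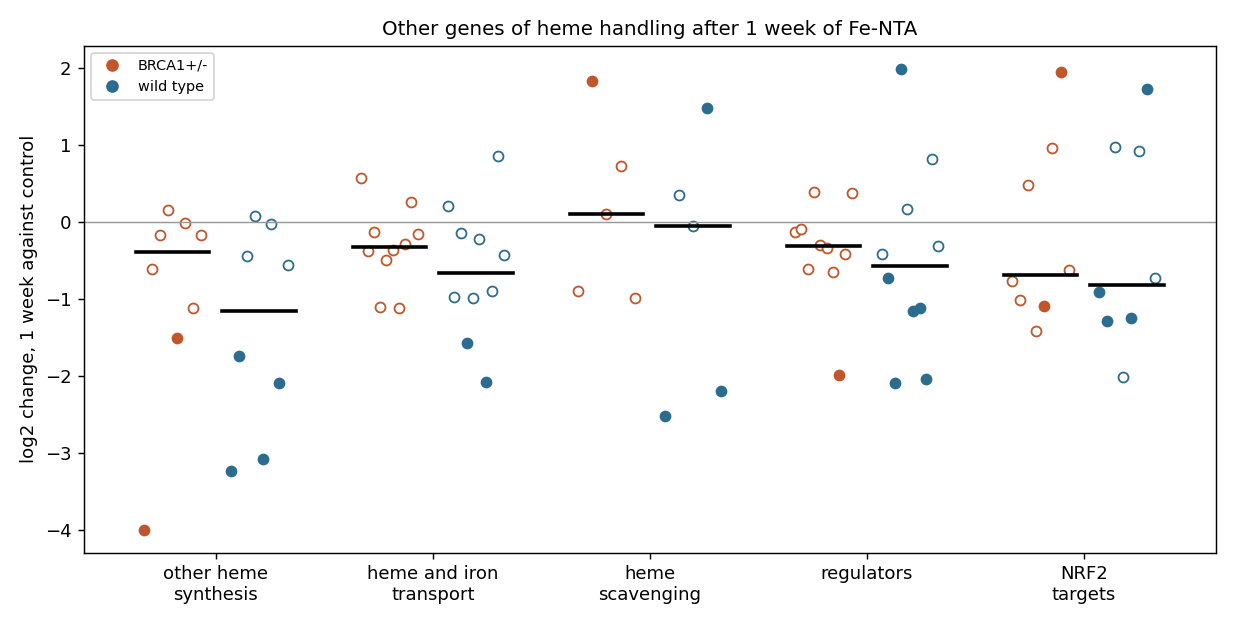
Log2 change after 1 week of Fe-NTA against control (vertical axis) of the tested genes of 5 lists, BRCA1+/- left of wild type. Filled points were called and black lines are list medians, which run from -0.69 to 0.10 in BRCA1+/- and from -1.15 to -0.05 in wild-type cortex. Points of genes below background in a group are fitted values.

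Over the 16 arrays genes whose centred profile lay close to that of Hmox1 included Lmo1 and H3f4, with mean absolute differences of 0.40 and 0.41 on the log2 scale. The median over 11420 genes was 1.03. Those closest to Alas1 were Dld, Hadha and Slc25a3, with 0.18, 0.18 and 0.19 and a median of 0.45. These profiles share the same 16 arrays and the same treatment.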

How the data were processed

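Per the file headers, the scanner files hold spot intensity values from Agilent Feature Extraction (version 10.7 per the submitters' processing notes), background-subtracted and with a substitute for dim spots. A second deposited table gives log2 values on the same 75th-percentile scale: for the member probes they differed from those computed here by at most 0.0098.

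Here 4259 control spots per array and outlier spots were left out and spots of a probe averaged. Signals were log2-transformed and each array's 75th percentile subtracted. A gene was read by its brightest probe, provided 1 or more groups had that probe well above background throughout. Of 45598 probes, 21222 took their symbol from the RefSeq gene table, 139 by way of a second probe sharing their name, and 24237 retained the name in the file. limma 3.58.1 in R 4.3.3 fitted 6 group means (10 residual degrees of freedom, Benjamini-Hochberg, two-sided), tested on simulated data. The fold bounds rest on each array's detection limit, which ran from -3.53 to -1.38. The number of arrays limits the precision.

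The members and gene lists were chosen with earlier results of these data known. Named genes were all members, at most 3 per list and comparison with the smallest adjusted p, a fixed set of heme genes, and the 3 profiles nearest Hmox1 and Alas1. Nrf1, Fth1, Nqo1, Gclm and Slc7a11 fell outside that rule and were named after their values were seen. Some genes that the rule names are not reported here. Replicate numbers do not pair the samples (lowest correlation of deviations -0.34 over 36 same-numbered pairs). Alternatives were other background corrections, scalings, filters, probe rules, slide and replicate blocks, and each array left out.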

Additional observations from a re-analysis of the deposited data

How the results depend on the processing

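Single-gene values of the 9 enzymes gave 1954 alternative values. Of these 1861 stayed on their side of the threshold, 87 lost and 6 gained a call, and none reversed a called direction. The sign differed in 159 that were called in neither setting. The 1-week counts of called enzymes, 2 in BRCA1+/- and 6 in wild-type cortex, were 0 and 1 with normexp, 1 and 2 with probes above background on all arrays (a filter that leaves out Hmox1, Cpox, Fech and the main Uros probe), 1 and 3 with the compared groups alone, 0 and 0 within slide 1, and 0 and 1 within slide 2. The BRCA1+/- count was 1 with quantile normalization, array-median scaling, no filter, every probe tested, the slide block or the replicate block, and 0 where dim values took the highest detection limit. The 3-week BRCA1+/- count, 1, was 0 with normexp, probes above background on all arrays, dim values at that limit and within either slide, and 2 with the mean over probes. The 3-week wild-type count, 0, was 1 with the mean over probes or the compared groups alone. The count between 3 weeks and 1 week in wild-type cortex, 3, was 0 with normexp, no filter and within either slide, and 1 with array-median scaling, probes above background on all arrays, every probe, the mean over probes or the compared groups alone, and 2 with the slide block. The causes were not tested. Leaving out 1 array gave 0 to 2 (BRCA1+/- 1 week), 0 to 1 (BRCA1+/- 3 weeks), 3 to 6 (wild type 1 week) and 0 to 5 (wild type, 3 weeks against 1), with lone controls assumed to vary like the other groups. The lowest came without BRCA1+/- control replicate 1, BRCA1+/- control replicate 2, wild-type control replicate 1, and wild-type 1-week replicate 3 or 3-week replicate 2, and the 5 without wild-type 1-week replicate 1. All other comparisons stayed at 0. With the replicate number as a block the counts were 1 and 6 at 1 week, 1 at 3 weeks in BRCA1+/-, and 3 between times in wild-type cortex; 4 of 16 arrays correlated best with their own number. Over all genes the counts called in BRCA1+/- cortex at 1 and 3 weeks (1197 and 2545) were 437 and 1559 with normexp, 719 and 1579 with array-median scaling, 454 and 1068 with no filter, 594 and 1664 with probes above background on all arrays, 1081 and 3888 with the compared groups alone, 28 and 277 within slide 1, and 126 and 253 within slide 2. In wild-type cortex (4337 and 2279) they were 1694 and 824, 3417 and 1688, 2656 and 970, 2687 and 1330, 1754 and 3709, 215 and 3, and 1083 and 305 in the same settings. Array-median scaling put the median change of all genes at -0.10 and 0.10 in BRCA1+/- and at -0.15 and -0.23 in wild-type cortex at 1 and 3 weeks.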
